A study of Homo sapiens with 9 samples.

Results

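AURKA, AURKB, PLK1, BUB1, TTK and CDK1 encode kinases of mitosis, CCNA2, CCNB1 and CCNB2 encode cyclins A2, B1 and B2, and TPX2 encodes the spindle protein that activates Aurora A. These 10 genes were taken by name from the 20442 genes of the deposited table, each as the coding span with the highest mean over the libraries. All 10 were among the 12409 genes with enough reads to be tested. RNA had been measured in PC9, a human lung cancer line driven by mutant EGFR, the receptor kinase that osimertinib blocks. The line carried the FUCCI4 cell cycle reporter. DAPI staining and the fluorescent CDT1 and geminin fusions set the gates for G1, S and G2. The treated cells had been kept in 500 nM osimertinib for 28 days, and gave 2 G1 libraries (clones 1 and 7), 1 S and 1 G2 library (clone 1). The untreated cells, labelled day 0, gave 2 G1 and 2 S libraries (clones 1 and 7 each) and 1 G2 library (clone 1). All cells were fixed with glyoxal and permeabilised before sorting. No label says whether the libraries of a clone came from separate cultures, and no group held 2 libraries of the same clone. The p-values within a phase or a day thus measure the spread between clones 1 and 7, with any technical part in it. Those over the phases also take in how far the libraries depart from a shared day and phase effect.

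Entry into mitosis needs cyclin B bound to CDK1, a complex that cyclin A2 helps to switch on in late S and G2. Polo-like kinase 1 and Aurora A act upstream of it and build the spindle poles, Aurora B is the kinase of the chromosomal passenger complex, and BUB1 and TTK (also called MPS1) work in the spindle checkpoint. Their genes are transcribed late in the cell cycle, held down in G0 and G1 by the DREAM complex and driven in G2 by B-MYB and FOXM1, largely through CCAAT boxes and a cell cycle homology region (CHR) near the transcription start.

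The promoters are shown because all 10 genes shared an order of phases within clone 1 on each day, lowest in G1 and highest in G2, and the CHR and CCAAT letters are the elements known for this timing. RefSeq promoters (GRCh38.p14, 250 bases before to 50 after the start) were at hand for 7 of the 10 genes: AURKB, PLK1, BUB1, CDK1, CCNA2, CCNB1 and CCNB2. The letters searched, on both strands, were CCAAT for the box and TTTGAA or TTCGAA for the CHR. CCAAT was found in 7 of these 7, against 34.6% of 35116 RefSeq promoters. TTTGAA or TTCGAA was found in 4 of 7, against 16.4%. TTTGAA began 29 bases before the start in PLK1, 29 before it in CCNB2, and, in the printed stretch of CDK1, 69 and 13 before it. TTCGAA in BUB1 began at the transcript's base 2, outside the printed stretch. A match describes these letters and is no evidence of a bound factor. The 150 bases before the start run 5′ to 3′ on the gene's strand, with the letters searched, on either strand, in capitals. They lie at chr10:60778328-60778477 (CDK1, plus strand), chr15:59104996-59105145 (CCNB2, plus strand), chr16:23678739-23678888 (PLK1, plus strand), chr2:110678064-110678213 (BUB1, minus strand) and chr5:69167000-69167149 (CCNB1, plus strand, with CCAAT only).
CDK1: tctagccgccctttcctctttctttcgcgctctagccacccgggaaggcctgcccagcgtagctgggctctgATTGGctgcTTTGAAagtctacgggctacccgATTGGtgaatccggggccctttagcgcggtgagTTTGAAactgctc
CCNB2: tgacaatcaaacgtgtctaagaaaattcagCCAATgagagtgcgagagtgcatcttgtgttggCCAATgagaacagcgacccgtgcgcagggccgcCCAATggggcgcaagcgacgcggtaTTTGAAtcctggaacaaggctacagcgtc
PLK1: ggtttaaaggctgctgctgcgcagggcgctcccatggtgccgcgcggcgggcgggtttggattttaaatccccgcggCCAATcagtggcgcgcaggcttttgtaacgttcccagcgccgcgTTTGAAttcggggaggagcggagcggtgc
BUB1: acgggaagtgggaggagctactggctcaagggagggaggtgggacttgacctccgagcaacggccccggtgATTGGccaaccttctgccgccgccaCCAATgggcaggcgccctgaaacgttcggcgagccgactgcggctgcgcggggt
CCNB1: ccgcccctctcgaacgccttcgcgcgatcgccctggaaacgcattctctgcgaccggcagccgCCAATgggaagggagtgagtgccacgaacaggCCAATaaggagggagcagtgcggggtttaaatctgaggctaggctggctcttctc

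The libraries held 8.83 M (day 0 G1 clone 7) to 108.7 M reads over 1 span per gene (M for mega). All 6 epithelial markers had reads in every library and summed to 11966 to 23109 reads per M at day 28 and 18552 to 29589 at day 0. The 5 leukocyte markers summed to 2.48 to 4.30 reads per M at day 28 and 4.99 to 12.7 at day 0, and the 6 fibroblast and endothelial markers to 20.1 to 53.3 and 19.2 to 26.5. The B cell marker MS4A1 was at 0 in 8 of the 9 libraries, all but day 28 G1 clone 1. CD68 of the leukocyte list and COL1A1, PECAM1 and CDH5 of the other list had enough reads to be tested. Over the phases, CD68 (log2 fold change -2.80 ± 0.46, SE), PECAM1 (-2.50 ± 0.47) and CDH5 (-1.85 ± 0.49) were lower at day 28 (limma adjusted p under 0.05). COL1A1 (0.38 ± 0.27) did not pass. Of the 6 epithelial markers 4 were lower, where 26.5% of tested genes were. The mitochondrial genome accounted for 8.61% to 21.6% of reads in day 28 libraries and for 6.07% to 10.7% in day 0 libraries. Their part in the results was not tested.

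Summed over the 10 genes, reads per M were 124 and 72.8 in day 28 G1 (clones 1 and 7), 976 in day 28 S and 2719 in day 28 G2, against 387 and 642 in day 0 G1, 1775 and 1757 in day 0 S and 4191 in day 0 G2. Both days thus had the same order of phases, with G1 lowest and G2 highest. In sorted bulk libraries, fewer cells with a transcript and less of it per cell cannot be told apart. The values below are on the log2 scale of the deposited table, and each stands for the whole library. There 1 unit is a 2-fold difference in reads over the coding span, introns included, once multiplied by a constant of the library. This scale is not that of reads per M. AURKB in G2 had 14.37 at day 28 and 14.35 at day 0, but 237 and 184 reads per M.

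**Figure D1:**
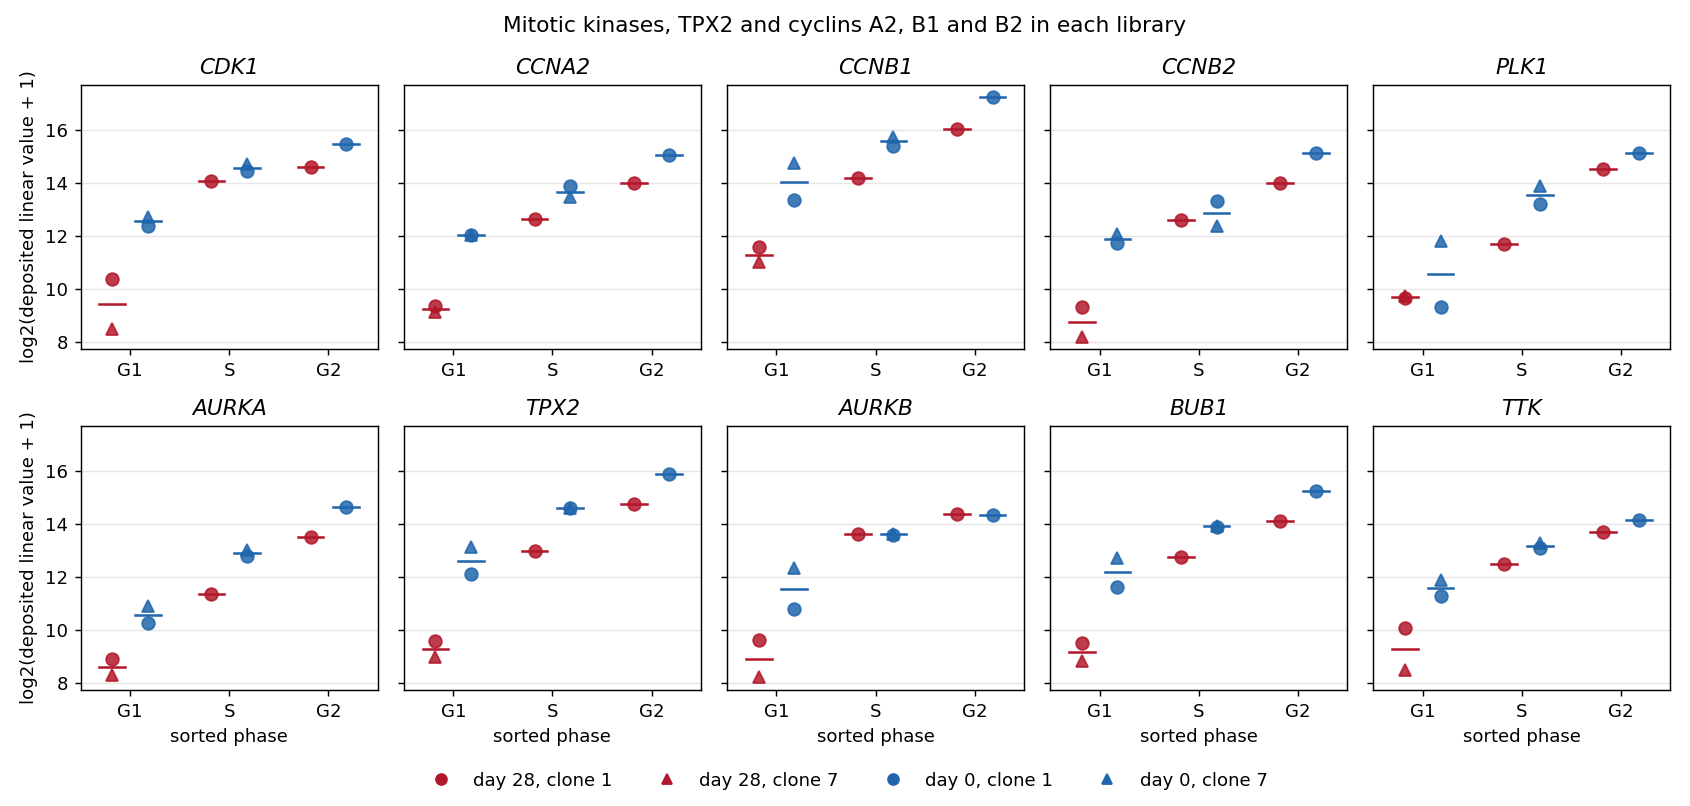
Log2 value of each of the 10 genes (one panel each) in the 9 sorted libraries, with phases along the axis and day 28 left of day 0 within a phase. Each point is 1 library, marked by clone, and short lines are group means. In 9 of 10 panels both day 28 G1 libraries lie below both day 0 G1 libraries, with PLK1 as the exception.

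CDK1, the kinase whose activity starts mitosis (ENSG00000170312, chromosome 10, 60780166 to 60793975, plus strand), had 10.39 and 8.47 in day 28 G1 (clones 1 and 7), 14.09 in S and 14.61 in G2. At day 0 it had 12.39 and 12.72 in G1, 14.46 and 14.72 in S and 15.47 in G2. The G1 libraries of day 28 were the lowest of all, at 488 and 143 reads, and day 28 S lay close under day 0 S. CDK1 was lower at day 28, with a log2 fold change of -1.80 ± 0.49 over the phases (SE, limma adjusted p = 0.00893) and of -3.13 ± 0.55 within G1 (adjusted p = 0.00621). In day 28 G1, clone 7 minus clone 1 was -1.92 on the log2 scale, the widest gap of the 10 genes there.

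CCNA2, the cyclin of S phase and early mitosis (ENSG00000145386, chromosome 4, 121817638 to 121823628, minus strand), had 9.36 and 9.14 in day 28 G1, 12.63 in S and 14.00 in G2. In untreated cells CCNA2 had 12.04 and 12.03 in G1, 13.89 and 13.46 in S and 15.08 in G2. Clone 7 minus clone 1 was -0.22 in day 28 G1 and -0.01 in day 0 G1, and the G1 groups stood apart. The log2 fold change was -1.86 ± 0.31 over the phases (SE, limma adjusted p = 0.000575) and -2.79 ± 0.26 in G1 (adjusted p = 0.00234). In S it was -1.05 ± 0.32 (adjusted p = 0.0776), and -1.16 with the replicate block by clone (adjusted p = 0.0413).

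CCNB1, the B-type cyclin that carries CDK1 into the nucleus at mitotic entry (ENSG00000134057, chromosome 5, 69167263 to 69177631, plus strand), had 11.59 and 11.00 in day 28 G1, 14.21 in S and 16.06 in G2. The day 0 values were 13.38 and 14.75 in G1, 15.41 and 15.75 in S and 17.26 in G2. Day 28 lay below day 0 in each phase without overlap, and the log2 fold change was -1.98 ± 0.34 over the phases (SE, limma adjusted p = 0.000766) and -2.77 ± 0.45 in G1 (adjusted p = 0.00500). CCNB2, the B-type cyclin found at the Golgi (ENSG00000157456, chromosome 15, 59105269 to 59124877, plus strand), had 9.32 and 8.18 in day 28 G1, 12.61 in S and 14.01 in G2, against 11.72 and 12.09 in day 0 G1, 13.34 and 12.38 in S and 15.14 in G2. Day 28 S lay between the clones of day 0 S here, while G1 and G2 were lower. CCNB2 stood at -1.79 ± 0.47 over the phases (adjusted p = 0.00784) and -3.16 ± 0.46 in G1 (adjusted p = 0.00391). A sense-overlapping transcript of the same strand, AC092757.2, shares 3844 bases with the CCNB2 span, so reads there cannot be assigned to one of them.

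PLK1, the Polo kinase (ENSG00000166851, chromosome 16, 23678933 to 23690063, plus strand), had 9.66 and 9.73 in day 28 G1, 11.70 in S and 14.52 in G2. Untreated cells gave 9.32 and 11.82 in G1, 13.20 and 13.88 in S and 15.14 in G2. PLK1 was the one gene of the 10 whose G1 groups overlapped, since day 0 G1 clone 1 (720 reads) lay below both day 28 libraries and clone 7 (280 reads in a shallower library) above them. In G1 it did not pass the test, at -0.87 ± 0.71 (SE, limma adjusted p = 0.350). Without day 0 G1 clone 1 this was -2.12 (adjusted p = 0.0135), and without clone 7 it was 0.38. Over the phases PLK1 was lower, at -1.11 ± 0.43 (adjusted p = 0.0455), a call that was lost without any single library other than day 0 G1 clone 1, with adjusted p up to 0.230 without day 28 S.

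AURKA, the Aurora kinase of the spindle poles (ENSG00000087586, chromosome 20, 56370158 to 56388197, minus strand), had 8.89 and 8.30 in day 28 G1, 11.36 in S and 13.51 in G2. The day 0 libraries had 10.25 and 10.90 in G1, 12.78 and 13.02 in S and 14.63 in G2. Day 28 lay below day 0 in each phase without overlap, and AURKA was lower, at -1.65 ± 0.24 over them (SE, limma adjusted p = 0.000278) and at -1.98 ± 0.34 in G1 (adjusted p = 0.00578). TPX2, which targets and activates Aurora A on spindle microtubules (ENSG00000088325, chromosome 20, 31757477 to 31801080, plus strand), had 9.59 and 8.98 in day 28 G1, 12.97 in S and 14.77 in G2, against 12.11 and 13.13 in day 0 G1, 14.62 and 14.63 in S and 15.90 in G2. It showed the greatest fall of the 10, at -2.31 ± 0.37 over the phases (adjusted p = 0.000452) and -3.33 ± 0.38 in G1 (adjusted p = 0.00252).

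AURKB, the Aurora kinase of centromeres and the midzone (ENSG00000178999, chromosome 17, 8204871 to 8210224, minus strand), had 9.61 and 8.20 in day 28 G1, 13.62 in S and 14.37 in G2. Day 0 values were 10.80 and 12.32 in G1, 13.57 and 13.64 in S and 14.35 in G2. The S and G2 values of the days were close to each other, and the G1 values of day 28 were lower. AURKB was the one gene that did not pass over the phases, at -1.22 ± 0.52 (SE, limma adjusted p = 0.0647), and it passed without day 28 S (adjusted p = 0.0308), day 28 G2 (0.0487) or day 0 G2 (0.04997). In G1 it was lower, at -2.66 ± 0.58 (adjusted p = 0.0119), a call lost without day 28 G1 clone 7 (adjusted p = 0.0690). In S its log2 fold change was 0.01, with a 95% interval of -1.65 to 1.67, which leaves room for a 2-fold difference in either direction.

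BUB1, the checkpoint kinase that marks centromeric chromatin (ENSG00000169679, chromosome 2, 110637964 to 110677995, minus strand), had 9.51 and 8.84 in day 28 G1, 12.74 in S and 14.13 in G2. In untreated libraries it had 11.61 and 12.73 in G1, 13.90 and 13.94 in S and 15.26 in G2. Day 28 was lower in each phase, with a log2 fold change of -2.01 ± 0.37 over the phases (SE, limma adjusted p = 0.000999) and -3.00 ± 0.41 in G1 (adjusted p = 0.00341). TTK, the kinase that recruits checkpoint proteins to unattached kinetochores (ENSG00000112742, chromosome 6, 80005844 to 80042202, plus strand), had 10.07 and 8.48 in day 28 G1, 12.49 in S and 13.71 in G2, against 11.28 and 11.87 in day 0 G1, 13.08 and 13.28 in S and 14.16 in G2. It differed less, at -1.38 ± 0.39 over the phases (adjusted p = 0.0111) and -2.30 ± 0.50 in G1 (adjusted p = 0.0115). Pseudogenes named after AURKA, BUB1 and CCNB2 are annotated, and the counting rule for reads shared with them is not given in the sources used here.

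Over the phases, 9 of the 10 genes passed as lower and 0 as higher at day 28 (limma, Benjamini-Hochberg adjusted p under 0.05), where 26.5% of all tested genes passed as lower and 28.6% as higher. Their median log2 fold change was -1.79, against 0.02 for all tested genes. In G1, 9 of 10 passed as lower, all but PLK1, and 0 as higher, against 19.1% and 19.9% of tested genes, with a median of -2.78. Both day 28 G1 libraries lay below both day 0 G1 libraries in 9 of 10, against 35.3%. In S, 0 of 10 passed, where 2.89% of tested genes passed as lower and 4.39% as higher. Of the 10, 5 had an unadjusted p under 0.05 in S by limma, each with a lower value at day 28. Of all tested genes 31.7% had such a p, in either direction. Limma voom on the recovered reads called 2 of the 10, with 611 of 12409 tested genes lower. Single libraries weigh on the limma count, which rose without day 0 G1 clone 1 and without day 0 G1 clone 7. The day 28 S library lay below both day 0 S libraries in 8 of 10 genes (not AURKB or CCNB2), against 40.9% of tested genes. In G2, with 1 library a day and no test, 9 of 10 differences were below 0, with a median of -1.10. AURKA, TPX2, BUB1, CCNA2, CCNB1 and CCNB2 were at least 2-fold lower, 6 of 10, against 17.3% of tested genes. This count depends on the scaling of the deposited values. In reads per M none of these 6 was 2-fold lower, with CCNB1, the furthest apart, at 770 in day 28 G2 against 1390 in day 0 G2.

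**Figure D2:**
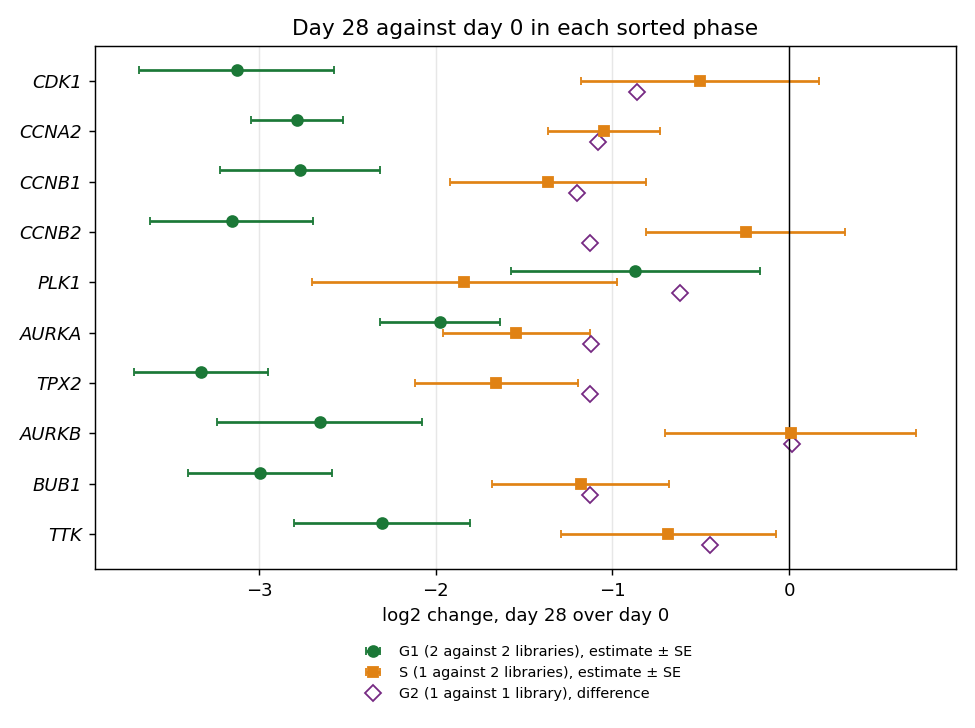
Difference between day 28 and day 0 in log2 value, by gene, in G1 (2 libraries a day), S (1 library at day 28, 2 at day 0) and G2 (1 a day). Points in G1 and S are limma estimates with bars of ± 1 SE, and G2 points are plain differences with no error. The G1 estimates other than PLK1 lie between -1.98 (AURKA) and -3.33 (TPX2), and the S estimates between -1.84 (PLK1) and 0.01 (AURKB).

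The clones differed in how far G1 was lowered. In clone 7 the difference between day 28 and day 0 in G1 ran from -2.08 (PLK1) to -4.25 (CDK1), with a median of -3.82. In clone 1 it ran from 0.34 (PLK1) to -2.68 (CCNA2), with a median of -1.90. All 10 genes were at least 2-fold lower in clone 7 and 9 of 10 in clone 1, against 20.7% and 22.2% of tested genes. In reads per M, AURKB in clone 1 fell just short of 2-fold, at 9.31 in day 28 G1 against 18.5 in day 0 G1. Clone 7 lay below clone 1 in 9 of 10 genes in day 28 G1 (median difference -0.64) and above it in 9 of 10 in day 0 G1 (median 0.83). Each of these comparisons sets 1 library against 1, and day 0 G1 clone 7 was the shallowest library, with 148 reads for AURKA to 2136 for CCNB1.

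The comparison of phases asked how far the genes still followed the cell cycle under the drug. At day 28 the S and G2 libraries exceeded both G1 libraries for all 10 genes, against 28.2% of tested genes. All 10 passed as higher in S and G2 than in G1 (limma adjusted p 0.00217 to 0.0400), where 2.89% of tested genes passed as higher and 1.85% as lower. The median log2 fold change was 4.16, from 3.41 ± 0.71 for PLK1 to 5.09 ± 0.58 for AURKB (SE). The count fell to 4 of 10 without day 28 G1 clone 7. At day 0 the S and G2 libraries again exceeded both G1 libraries for all 10, against 9.21% of tested genes, with a median log2 fold change of 2.42, from 2.09 (TTK, CCNB2) to 3.77 (PLK1). None of the 10 passed by limma at day 0 (adjusted p 0.0579 to 0.316), where 0% of tested genes passed. All 10 had an unadjusted p under 0.05, as did 4.96% of tested genes, and limma voom called 5 of them and 44 of all 12409 tested genes as higher.

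The term that compares these differences between the days was positive for 9 of 10 genes, from 0.65 (AURKA) to 2.67 (AURKB), and -0.36 for PLK1. None passed (limma adjusted p 0.397 to 0.927), 8 had an unadjusted p under 0.05, as did 10.3% of tested genes, voom called 0, and 0% of tested genes passed. PLK1 stood apart in its steps within clone 1. Its difference between S and G1 was 2.04 at day 28 and 3.88 at day 0, while the other 9 genes had 2.42 to 4.01 at day 28 and 1.62 to 2.78 at day 0. The day 0 step was smaller in clone 7, where PLK1 had 11.82 in G1 and 13.88 in S. In clone 1 the PLK1 difference between G2 and S was the largest of the 10 at both days, 2.82 at day 28 and 1.94 at day 0. CDK1 and AURKB had the smallest differences between G2 and S, 0.52 and 0.75 at day 28 and 1.01 and 0.77 at day 0. Over both days the limma estimate for G2 against S was lowest for CDK1 (0.91) and highest for CCNB2 and PLK1 (2.09 each). None of the 10 passed, where 0% of tested genes passed, and voom called 0. By limma 8 had an unadjusted p under 0.05, as did 7.83% of tested genes. In clone 1 alone 6 passed (AURKA, TPX2, PLK1, BUB1, CCNB1 and CCNB2), as did 66 of 12409 tested genes as higher and 28 as lower.

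**Figure D3:**
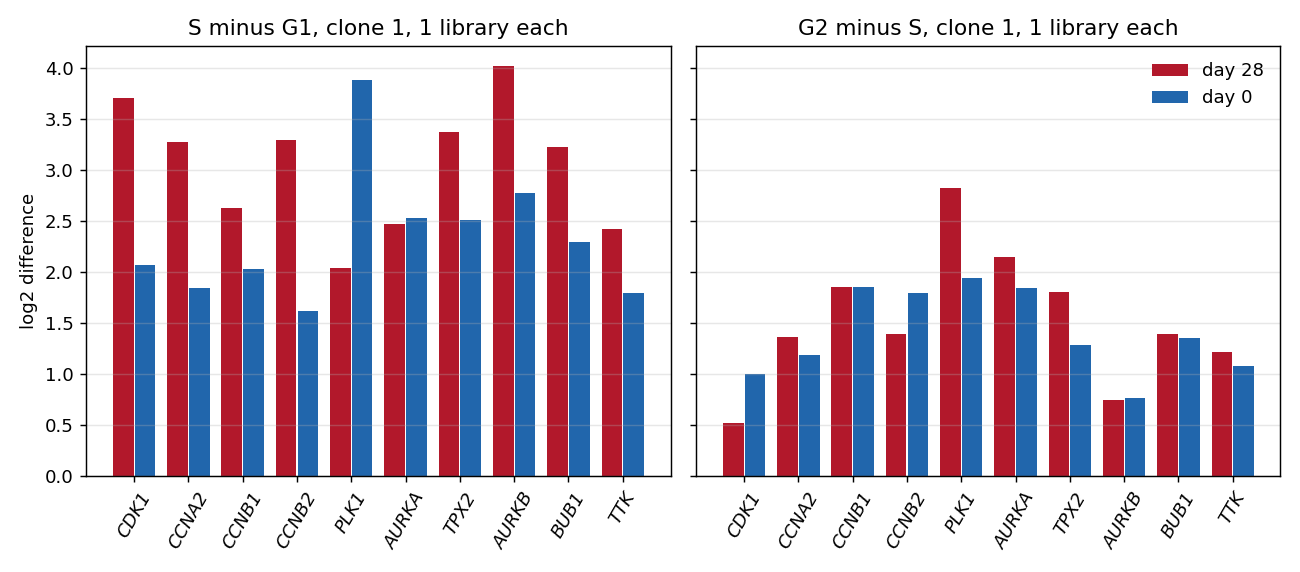
Difference in log2 value between S and G1 (left) and between G2 and S (right) in clone 1, by gene, with day 28 left of day 0. Each bar rests on 1 library a phase. PLK1 has the smallest difference between S and G1 at day 28 and the largest at day 0, and every difference between G2 and S shown is above 0.

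Set against G2 of the same day, G1 held less of each transcript at day 28 in most cases. In day 28 G1 clone 1 the reads per M reads were 2.93% (TPX2) to 8.54% (TTK) of those in day 28 G2, with a median of 4.29%, and in clone 7 they were 1.50% (AURKB) to 3.89% (PLK1), with a median of 2.80%. In day 0 G1 clone 1 they were 2.08% (PLK1) to 16.0% (TTK) of day 0 G2, with a median of 9.70%, and in clone 7 they were 7.49% (AURKA) to 24.4% (AURKB), with a median of 14.7%. PLK1 in day 0 G1 clone 1 is the exception, at a share below that of day 28 G1. Both G2 libraries came from clone 1, so the shares for clone 7 compare clones as well as phases. How many S or G2 cells a G1 gate held was not measured in these files.

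**Figure D4:**
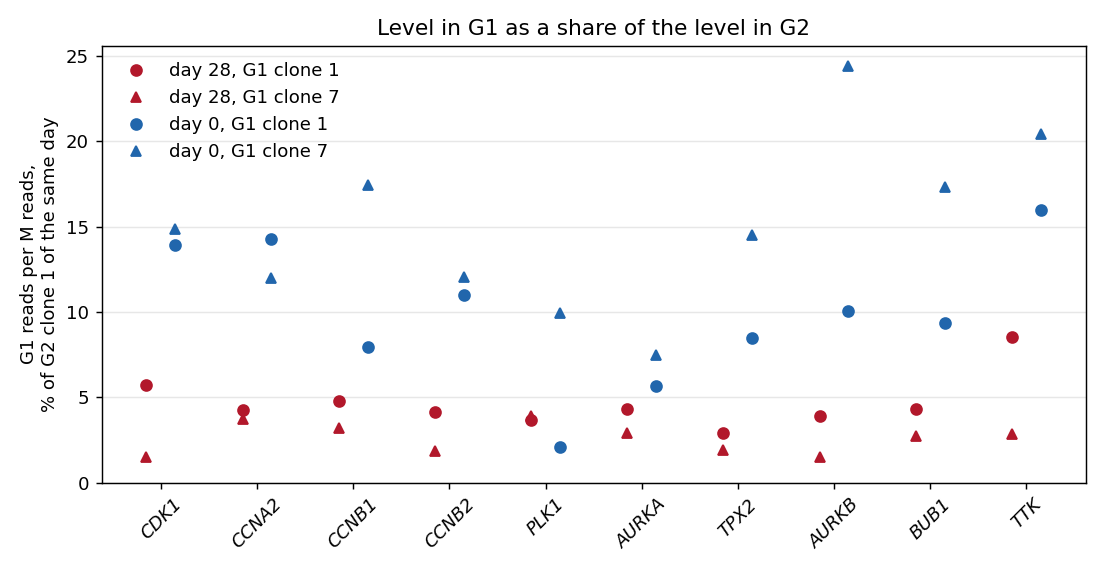
Reads per M reads in G1 as a percentage of those in the G2 library of the same day, by gene, with day 28 left of day 0 and each point a G1 library marked by clone. The medians are 4.29% (clone 1) and 2.80% (clone 7) at day 28 and 9.70% and 14.7% at day 0.

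Per kb of coding sequence, CCNB1 was the most abundant of the 10 in 8 of 9 libraries, with 24.9 and 16.7 reads per kb per M reads in day 28 G1, 142.2 in S and 520.6 in G2, against 74.8 and 163.6 in day 0 G1, 307.9 and 352.3 in S and 940.1 in G2. In day 28 S, CDK1 stood first at 209.6, and it was second in 7 others. TTK was the least abundant in 6 of 9 libraries. The 10 genes ran nearly in parallel over the libraries. The correlation of each with the mean of the others was lowest for PLK1 (Pearson r = 0.905) and highest for BUB1 (0.996), over 9 libraries that share their phase and day.

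The file holds 42 coding spans for the 10 genes, of which 35 were high enough to test. All 35 had a log2 fold change below 0 over the phases and 31 passed as lower (limma). Spans of 1 gene overlap and are not independent. For AURKB 5 of 8 spans passed. Those were the 5 that stop short of the 3′ end of the coding sequence (-1.44 to -1.87), while the 3 that reach it stood at -1.18 to -1.24. The last 1620 bases of the AURKB span, beyond one of these shorter ones, held 62.0% and 65.5% of its reads in day 28 G1, 54.7% in S and 56.4% in G2, against 45.8% and 54.2% in day 0 G1, 45.2% and 48.2% in S and 43.9% in G2. CCNB2 had 27.1% to 32.2% at day 28 and 16.1% to 22.4% at day 0. For PLK1 the stretch was 10609 of the 11131 bases of its span, all but its start, so it is no measure of the 3′ end. In G1 it held 92.6% and 89.2% of PLK1 reads at day 28 and 95.4% and 95.7% at day 0. Such a share could be had for 7 members, over unlike stretches, from 273 bases in CCNB1 to 31331 of 36359 bases in TTK. In G1 the day 28 libraries lay above day 0 in 4 of the 7 and below in 1, and in S above in 4 and below in 1. In G2 they lay above in 5 and below in 2, where 1 library a day puts every gene either above or below. The share of all genes that separated likewise was not computed, so these counts describe the 7 members alone. The median of this 3′ share over 6502 genes was 54.9% to 58.0% at day 28 and 52.8% to 56.5% at day 0. Its part in the day comparison was not tested.

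Genes around the 10 were counted from lists of the same pathway, to be read against the 26.5% of tested genes that were lower and the 28.6% that were higher at day 28 over the phases. Among 13 tested regulators of CDK1, 3 passed as lower (23.1%) and 2 as higher (15.4%), shares below those of all tested genes, with a median log2 fold change of -0.37. The CDK-binding subunits CKS1B (-2.03 ± 0.36, SE) and CKS2 (-1.18 ± 0.29) and cyclin H, CCNH (-1.03 ± 0.18), were lower. The CCNH call was lost on its span with the lowest mean (-0.38, adjusted p = 0.219). WEE1, the kinase that inhibits CDK1, was higher (0.87 ± 0.19). In G1 the list had 7 lower and 2 higher, where 19.1% of tested genes were lower and 19.9% higher. Of 13 other mitotic kinases 5 were lower and 2 higher, with a median of -0.81. PBK (-2.59 ± 0.50), the histone H3 kinase HASPIN (-2.34 ± 0.62) and the centrosome kinase NEK2 (-2.05 ± 0.42) fell, and stood at -3.22 (NEK2) to -4.28 (HASPIN) in G1, and the Hippo kinase LATS2 was higher (1.45 ± 0.22). WEE1 and LATS2 were named after their values were seen.

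Of 12 genes of the passenger complex and the spindle checkpoint, 5 were lower and 0 higher, with a median of -0.69. They include survivin, BIRC5 (-2.27 ± 0.44), a partner of Aurora B, the checkpoint protein MAD2L1 (-2.42 ± 0.48) and the ATPase TRIP13 (-1.76 ± 0.33), which remodels it. Of 16 genes of the anaphase-promoting complex and its partners, 8 were lower and 1 higher, with a median of -0.43. CDC20, the mitotic activator (-2.25 ± 0.49), and the ubiquitin-conjugating enzymes UBE2S (-1.51 ± 0.40) and UBE2C (-1.40 ± 0.42) fell. Quantile scaling ended the UBE2C call (adjusted p = 0.0759). Of 6 genes of separase and cohesin protection 2 were lower and 1 higher, with a median of -0.30. Securin, PTTG1 (-1.91 ± 0.54), and sororin, CDCA5 (-1.11 ± 0.40), fell, while PDS5B stood higher at 0.83 ± 0.25. The CDCA5 call was lost without any 1 of the 4 G1 libraries, with quantile scaling (limma adjusted p = 0.135) and with the trend by span length removed (0.0762). The PDS5B call was lost without day 28 S (limma adjusted p = 0.0823), with that trend removed (0.699) and on its span with the lowest mean (0.158).

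Of 15 transcription factors of the late cell cycle, 5 were lower (33.3%) and 4 higher (26.7%), near the shares of all tested genes, with a median of 0.22. B-MYB, MYBL2 (-1.48 ± 0.38), and FOXM1 (-1.17 ± 0.41) were lower. DREAM subunits went both ways. RBBP4 (-0.87 ± 0.23), E2F4 (-0.64 ± 0.19) and TFDP1 (-0.99 ± 0.20) were lower. LIN52 (2.01 ± 0.27), LIN37 (1.19 ± 0.21), LIN54 (0.76 ± 0.28) and RBL2 (1.42 ± 0.20), the pocket protein p130, were higher. All called genes of this list are named, beyond the naming rule. The RBL2 call was lost on its span with the lowest mean (adjusted p = 0.505). Of 13 mitotic exit phosphatases and their regulators 6 were lower and 1 higher, with a median of -0.40. The catalytic subunits PPP1CA (-1.51 ± 0.18) and PPP1CC (-1.40 ± 0.20) fell, and CDC14A rose (3.71 ± 0.32). The spans of LIN52 and CDC14A measure 114.0 and 192.5 kb, introns included.

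Of 10 genes of G1 and S phase, 6 were lower and 0 higher at day 28, with a median of -1.43. Cyclin E1, CCNE1 (-1.27 ± 0.31), the licensing factor CDC6 (-1.59 ± 0.34), the helicase subunits MCM5 (-1.75 ± 0.33) and MCM6 (-2.09 ± 0.31), PCNA (-1.78 ± 0.35) and the ribonucleotide reductase RRM2 (-1.91 ± 0.46) fell. The adjusted p of these 6, by limma, lay between 0.000284 and 0.00551. The other genes did not pass: cyclin D1, CCND1 (-0.62 ± 0.27), cyclin E2, CCNE2 (-0.52 ± 0.81), CDT1 (-0.39 ± 0.52) and GMNN (-0.99 ± 0.46). Reads of the reporter may count towards CDT1 and GMNN. Both passed once clone was a blocking term, CDT1 at -0.67 (adjusted p = 0.0443) and GMNN at -1.21 (adjusted p = 0.00586). CDT1 also passed on its span with the lowest mean (-1.28, limma adjusted p = 0.0159). CCND1 passed by limma voom (-0.70, adjusted p = 0.0393). Its estimate was -0.97 in clone 1 alone and -0.78 without day 0 G1 clone 7. At day 28, 1 gene of this list was higher in S and G2 than in G1 (RRM2) and 1 was lower (CCNE2). Of all tested genes 2.89% were higher and 1.85% lower there. The list had a median of 0.23. The difference between this list and the 10 mitotic genes was not tested. Over the 7 lists of mitotic genes and regulators and this one, 40 of 98 tested genes were lower (40.8%) and 11 higher (11.2%) at day 28, against 26.5% and 28.6% of all tested genes, and without day 28 S the higher ones numbered 6.

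The tested genes most like the mean of the 10, over 12399 others, were NEK2 (Pearson r = 0.998 over the 9 libraries), the motility receptor HMMR (0.996), DLGAP5 (0.995), CKS2 (0.993), the condensin subunit NCAPD2 (0.990), UBE2C (0.990), CDCA2 (0.989) and the kinetochore protein NDC80 (0.989). Their log2 fold changes for day 28 over the phases ran from -1.08 (NCAPD2) to -2.05 (DLGAP5), a direction that their choice by likeness to the 10 largely sets. These libraries share day, phase and clone, so the correlations describe the 9 libraries and carry no p.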

How the data were processed

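RNA was measured by strand-specific poly(A) RNA-seq in 9 libraries of sorted PC9 FUCCI4 cells, read as 75 bp single ends per the labels' protocols. The authors deposited log2 values for 80037 coding spans. The submitters' processing notes name HISAT2 2.1.0, the GRCh38 build and DESeq2 (no version), while the counter and the scaling are not given in the sources used here. Checked on the values, every entry of a library is log2 of a whole read number times a constant. A span without reads holds 0.9 reads, and 100% of entries of at most 1000 reads were whole within 0.05. Spans include introns, so the values mix spliced with unspliced RNA, and untranslated ends do not count.

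Each gene took its span with the highest mean. Tests ran on log2(linear value + 1), and fold changes are on that scale. Tested were the 12409 of 20442 genes whose mean log2 reached 7.01, which 10 reads give in the shallowest library. Such a value carries a wide counting error. Tests used limma 3.58.1 in R 4.3.3 (eBayes with trend, threshold at a Benjamini-Hochberg adjusted p of 0.05 over all genes tested), with Python 3.11.15, pandas 2.3.3, numpy 2.4.6, matplotlib 3.10.9 and the package data.table (1.17.8), and were tested on simulated data. Day 28 over the phases, and G2 against S, used day and phase as terms. The other comparisons used 6 group means with 1 pooled spread, so groups of 1 library were assumed to vary like the rest.

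Members, lists and naming rule were chosen with earlier results of these data known. The rule named all members, up to 3 called genes per list with the largest change, the G1 and S phase genes, and the 8 genes most correlated with the members. Libraries of 1 clone share its number. The differences of clone 7 from clone 1 correlated at 0.651 (day 0 G1 with day 0 S), 0.114 (day 0 G1 with day 28 G1) and 0.294 (day 0 S with day 28 G1), so the block fit by clone is reported beside a result whose call it changes. Alternatives were 2 other scalings, no filter and a filter of 50 reads, pseudocounts of 0.1 and 5, limma voom on the recovered reads, the replicate block, clone 1 alone, each library left out, the span with the lowest mean, the span-length trend removed and a background density subtracted.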

Additional observations from a re-analysis of the deposited data

Results flagged for a closer look

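AURKB was set aside because its difference between day 28 and day 0 went opposite ways in the phases. In G1 both day 28 libraries (9.61 and 8.20 on the log2 scale) lay below both day 0 libraries (10.80 and 12.32), while in G2 the day 28 library lay above the day 0 library by 0.0185. That G2 difference rests on 1 library a day and is close to 0. The difference between G1 and G2 was not tested, and the term that compares S and G2 with G1 between the days was 2.67 (limma adjusted p = 0.399). The 3′ share of AURKB reads was higher at day 28 in each phase, and its part in this result was not tested.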

How the results depend on the processing

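Over the phases, 8 to 10 of the 10 genes passed as lower under every alternative run, and in G1 8 to 10, with 9 in both fits with the clone as a replicate block. The AURKB call over the phases was gained with no filter (adjusted p = 0.0363), on the span with the lowest mean (0.0226), and without day 0 G2 (0.04997), day 28 S (0.0308) or day 28 G2 (0.0487). The PLK1 call was also lost with voom (0.0530), the background subtracted (0.0539), clone 1 alone (0.0828), the span trend removed (0.115) and the span with the lowest mean (0.337). In S the count of lower members was 0, and it was 1 with median-of-ratios scaling, 1 with quantile scaling, 2 with no filter, 2 by voom, 1 with the replicate block (CCNA2) and 0 to 3 with a library left out. For S and G2 against G1 at day 28, the count of higher members was 10, and 8 to 10 over the alternatives that kept all libraries. On the span with the lowest mean, PLK1 (limma adjusted p = 0.0836) and CCNB1 (0.0502) lost their calls, and 267 of 12409 tested genes were higher. The member count at day 28 also fell without day 28 G1 clone 7. At day 0 the member count was 0. It was 2 with median-of-ratios scaling (4 of 12409 tested genes higher) and 10 with no filter (66 of 20442). With a filter of 50 reads it was 2 (8 of 9772), by voom 5 (44 of 12409) and with the span trend removed 2 (8 of 12409). The member count at day 0 also rose without day 0 G1 clone 7. For G2 against S it was 0, and 6 in clone 1 alone, where 66 of all genes were higher and 28 lower. The higher companion genes were 11, and 6 to 12 with a library left out. The cause of these moves was not tested. The sign reversed for PLK1 in G1, which ran from -2.12 to 0.38 with a library left out (0.38 without day 0 G1 clone 7) and was 0.13 on the span with the lowest mean. It reversed for AURKB in S, at -0.052 with median-of-ratios scaling, -0.47 on the span with the lowest mean and -0.024 to 0.043 with a library left out. CCNB2 in S ran from -0.73 to 0.24 (without day 0 S clone 1). The day-by-phase term of PLK1 was 0.27 with quantile scaling and ran from -1.61 to 0.89 (without day 0 G1 clone 1). None of these reversed values belongs to a call. The cause was not tested.

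Over all genes in S, 545 were higher and 359 lower at day 28, against 1131 and 806 with the replicate block, 1139 and 611 by voom, 1807 and 766 with no filter, and 0 and 0 without day 0 S clone 7 or either day 28 G1 library. In G1, 2465 were higher and 2374 lower, and 1097 and 1419 without day 28 G1 clone 1. For S and G2 against G1 at day 28, 359 were higher and 229 lower, and 42 and 4 without day 28 G1 clone 7. The centre of all genes' log2 fold changes over the phases, 0.02, was -0.11 with quantile scaling, -0.11 with a filter of 50 reads and -0.16 on spans with the lowest mean. Clone 1 alone could not be fitted with 6 group means, and leaving out a group's lone library gave no value for that group. Depth limits day 0 G1 clone 7, where AURKA had 148 reads, PLK1 280 and TTK 291.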
